A study of Mus musculus with 28 samples.

Results

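This comparison set endothelial libraries from mice with kidney injury that had received a mimic of miR-486-5p against endothelial libraries from sham mice. It takes in 5 of the 28 samples of the series, 2 with the mimic and 3 sham, and all 25412 genes of the authors' deposited table of that contrast, of which 18864 have an adjusted p. All groups were male FVB mice. The sham group is labelled as having no injury. The mimic group had acute kidney injury, IRI in the sample titles, treated with the miR. Further endothelial groups of 3 were untreated injury, injury with scrambled miR and injury with exosomes, and they are used here only to place the mimic values. In every group endothelial cells were drawn from enzymatically digested kidneys with CD31 microbeads, RNA was poly(A) selected, and libraries were sequenced on a NextSeq 500. By the series design the mimic group held 2 mice, although the extraction protocol has RNA from 3 for every group. Age, dose and the time between injury, treatment and collection are not given in the sources used here.

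A miRNA mimic is a synthetic RNA that is loaded into the silencing complex in place of a natural miRNA and lowers messages that pair with its seed. miR-486-5p is made from the Ank1 locus and has been reported to repress Foxo1, a transcription factor that acts against growth factor signalling and is held in check by AKT. Kidney endothelium lines the glomerular and peritubular capillaries, and ischemia followed by reperfusion is known to make it leaky and adhesive for leukocytes. The neighbouring proximal tubule cells reabsorb phosphate, glucose, amino acids and filtered protein, burn fatty acids, and are the cells most easily lost after ischemia. CD31, encoded by Pecam1, is carried by endothelium and also by platelets, monocytes and neutrophils, so a CD31 preparation can hold blood cells.

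The mimic libraries held 14.2 and 24.1 M reads counted to genes, against 8.27 to 11.8 M with scrambled miR and 12.1 to 13.6 M with exosomes. The sham and untreated libraries are reanalyses of samples from an earlier deposit and their values in single libraries were not analysed here, so the deposit and the group cannot be told apart in mimic over sham. Untreated injury over sham lies within the earlier deposit. All 26 endothelial identity genes were detected in both mimic libraries, where their TPM (a level scaled for transcript length and library size) summed to 1029.8 and 1287. TPM also depends on which transcripts of a gene the reads were assigned to, so RPM (a gene's reads scaled to the counted reads of the library alone) is given beside it for some genes, among them each gene shown by library whose groups overlapped on only 1 of these scales. Tubule genes were present at higher sums: 12 thick ascending limb genes summed to 13864 and 15509.6 TPM and 28 proximal tubule genes to 2899.8 and 2483 TPM. Endothelial RNA is therefore present, together with much tubular RNA, but detection of marker genes does not show how far endothelial cells were enriched. One exosome library stands apart from the others, with a proximal tubule sum of 20794 TPM against 3535 and 2399 in the other exosome libraries.

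Of the 18864 genes with an adjusted p in the authors' deposited table of mimic over sham, 2181 (11.6%) were called at an adjusted p under 0.05, 742 (3.93%) higher and 1439 (7.63%) lower with the mimic. The calls were uneven in size: the called genes that were lower had a median deposited log2 fold of -1.90 and those that were higher 1.37, and the median over all tested genes was 0.01. A log2 fold beyond 3 was given for 354 of the lower and 73 of the higher genes. Long noncoding RNAs made up 120 of the lower and 23 of the higher calls, of 1729 tested. The deposited folds appear shrunken towards 0, since their absolute ratio to the standard error has a median of 0.887 where the deposited p-values imply 1.20. How far folds are shrunken may differ between the deposited comparisons, so their sizes are not on one scale. For comparison, the authors' deposited table of untreated injury over sham called 853 genes (4.41%), 638 (3.3%) higher and 215 (1.11%) lower, with the same 3 sham libraries.

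**Figure D1:**
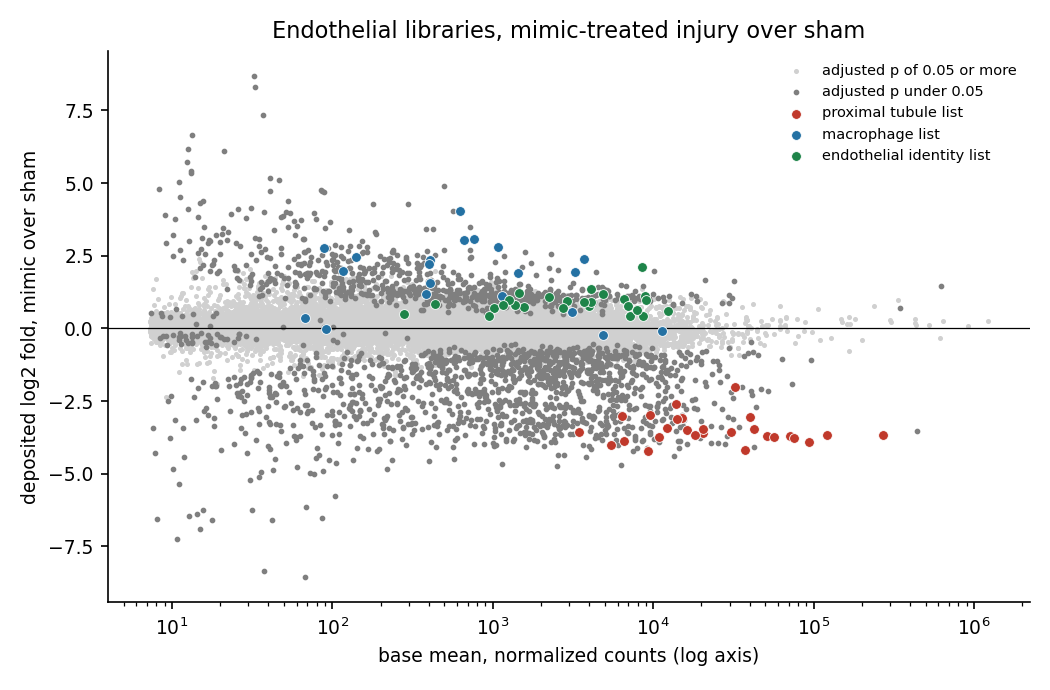
Deposited log2 fold of mimic over sham for each tested gene (vertical axis) against its base mean, the authors' normalized count averaged over libraries (horizontal log axis). Grey points are genes, dark where the adjusted p is under 0.05, and coloured points are 3 marker lists: the 27 proximal tubule genes lie between -4.23 and -2.03, most macrophage genes above 1, and the 26 endothelial genes between 0.43 and 2.11.

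In the plot of fold against level the proximal tubule genes stand out as abundant genes with wide falls. All 27 proximal tubule genes with an adjusted p fell with the mimic (28 were listed, and G6pc, glucose-6-phosphatase, has none), with a median deposited log2 fold of -3.59 against 0.01 over all genes. In bulk samples fewer cells of a type and less RNA per cell cannot be told apart, and here proximal tubule RNA is itself RNA of another cell type in a CD31 preparation.

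Among the apical transporters, Slc34a1, the sodium phosphate cotransporter of the brush border (ENSMUSG00000021490, chromosome 13, 55398187 to 55415592, plus strand, GRCm38), had 75.2 and 65.3 TPM in the mimic libraries, 352, 151 and 106 TPM with scrambled miR and 602, 70.6 and 62.5 TPM with exosomes. Both mimic libraries were below every scrambled library and within the range of the exosome libraries. Its log2 fold over sham in the authors' deposited table was -3.71 (SE 0.76, adjusted p = 4.49e-06). Slc5a2, the sodium glucose cotransporter of the early segment, had 9.35 and 8.59 TPM with the mimic, 97.4, 33.2 and 20.6 with scrambled miR and 114, 11.8 and 11.4 with exosomes. The mimic libraries held the lowest TPM of the 8, but with 25.1 and 23.5 RPM they overlapped the exosome libraries (278, 34.4 and 22.7). The authors' deposited table gives a log2 fold over sham of -4.23 (SE 0.90, adjusted p = 5.90e-06). On the blood side, the organic anion transporters Slc22a6 and Slc22a8 fell by 3.57 and 3.99 on the deposited log2 scale. Megalin and cubilin, the receptors that take up filtered protein, fell as well: Lrp2 had a deposited log2 fold of -3.06 (SE 0.80) and Cubn of -2.99 (SE 0.82).

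The enzymes of the same cells moved in the same direction. Pck1, a rate-limiting enzyme of gluconeogenesis, had 24.5 and 21.3 TPM with the mimic, 172, 142 and 175 with scrambled miR and 154, 41.3 and 44.5 with exosomes. The mimic libraries lay below all 6 other libraries. In the authors' deposited table Pck1 had the smallest adjusted p of the proximal tubule list, with a log2 fold of -3.70 (SE 0.50, adjusted p = 4.71e-11). Fbp1, fructose-bisphosphatase, fell by 3.59 on the same deposited scale. Kap, an androgen-driven kidney protein, was the most abundant member at 1608 and 1333 TPM with the mimic and 7670.4, 3449.7 and 4252 TPM with scrambled miR, and its deposited log2 fold over sham was -3.68. Hnf4a, a nuclear receptor that drives the proximal tubule programme, fell by 3.13 (SE 0.74), and its paralog Hnf4g fell by 2.25 on the deposited log2 scale.

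Detoxification families of the proximal tubule, grouped by symbol after their values had been seen, followed the same direction. The shares to set beside their counts are the 7.63% of all tested genes that were lower and the 3.93% that were higher. Of the UDP-glucuronosyltransferases, which conjugate drugs and steroids, 13 of 16 with an adjusted p fell (18 listed), with a median deposited log2 fold of -3.58. Ugt1a7c had 2.71 and 2.78 TPM with the mimic, 51.2, 19.2 and 27.0 with scrambled miR and 32.7, 3.48 and 3.42 with exosomes, and the authors' deposited table gives a log2 fold over sham of -4.71 (SE 0.82, adjusted p = 1.51e-07). The mimic libraries lay below the other 6. Genes of the Ugt1a locus share their last exons, so the split of reads among Ugt1a7c, Ugt1a8 and their neighbours is uncertain. Falls were also called for 6 of 9 carboxylesterases (14 listed, median -3.63), all 4 medium-chain acyl-CoA synthetases (median -3.49), 8 of 10 NAT8 acetyltransferases (median -3.25) and 8 of 20 aldehyde dehydrogenases (median -0.49, with Aldh1l2 higher by 1.65). Among drug and ion carriers, 12 of 23 SLC22 transporters (median -0.80), 6 of 10 SLC5 cotransporters (11 listed, median -2.51) and 7 of 14 SLC6 amino acid transporters (18 listed, median -1.36) fell. The cytochrome P450 families 2 and 4 split, with 20 of 36 lower and 5 higher (51 listed). Cyp4f18, which metabolises leukotriene B4 in neutrophils, rose by 3.73, while the tubular Cyp2e1 fell by 4.19 on the deposited log2 scale.

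The 12 widest falls among genes with a base mean of at least 100 were AW822252, Mogat2, Dpep1, Ugt1a7c, Ugt1a8, 0610031O16Rik, Olfm3, Bco2, Gm13855, Slc39a5, Folh1 and Dnase1. Dpep1, a brush border dipeptidase, had 1.495 and 1.77 TPM with the mimic, 11.9, 10.4 and 3.32 with scrambled miR and 25.9, 1.49 and 1.61 with exosomes. The mimic libraries overlapped exosome libraries 2 and 3 and lay below all scrambled libraries, and the authors' deposited table gives -4.74 (SE 0.93, adjusted p = 1.60e-06). Dnase1, a secreted nuclease, had 36.4 and 26.1 TPM with the mimic, 178, 82.9 and 92.9 with scrambled miR and 441, 33.4 and 21.9 with exosomes. The mimic libraries were below all scrambled libraries and within the exosome range. The deposited log2 fold of Dnase1 over sham was -4.39 (SE 0.86). Folh1, a membrane carboxypeptidase, fell by 4.42, Mogat2, an acyltransferase of triglyceride synthesis, fell by 4.84, Bco2, a carotenoid-cleaving enzyme, fell by 4.54, and Slc39a5, a zinc transporter, fell by 4.49 on that scale. AW822252 had the widest fall at -5.78 (SE 1.05) and was at 0.0837 and 0.109 TPM in the mimic libraries.

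The same proximal tubule genes had other values in the other injured groups, which share the sham libraries and are therefore given side by side only. Shrinkage may differ between the deposited comparisons, so gaps between these folds are not measured differences. Dnase1, for example, stood at -4.39 for mimic over sham, -0.31 for untreated injury over sham and -2.70 for mimic over untreated injury, which do not add up. In the authors' deposited table of untreated injury over sham the 27 genes had a median log2 fold of -0.32. There 3 were called lower, where 1.11% of all tested genes were, and Slc34a1 stood at -0.32 and Pck1 at 0.32. In that of exosomes over sham, where 1236 of 18377 genes (6.73%) were called and 620 (3.37%) were lower, the median was -1.46, with 16 called lower, Slc34a1 at -1.62 and Pck1 at -1.66. The authors' deposited table of mimic and untreated injury tests these groups directly and called 2032 of 19841 genes (10.2%), 750 (3.78%) higher and 1282 (6.46%) lower with the mimic. There 24 of the 27 proximal tubule genes were lower with the mimic, with a median of -2.29; Slc34a1 had a log2 difference of -2.31 (SE 0.82, adjusted p = 0.00461). Untreated libraries too come from the earlier deposit. In tubular cells, the authors' deposited table of mimic over sham called 184 of 17842 genes (1.03%), 8 (0.0448%) higher and 176 (0.986%) lower. None of the 28 proximal tubule genes was called there, and their median was 0.01, with folds from -0.03 to 0.04. Folds of that comparison appear strongly shrunken: Cldn5 was called at a deposited adjusted p of 0.0274 with a log2 fold of -0.04. The median of 0.01 therefore does not measure an absence of change in tubular cells.

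**Figure D2:**
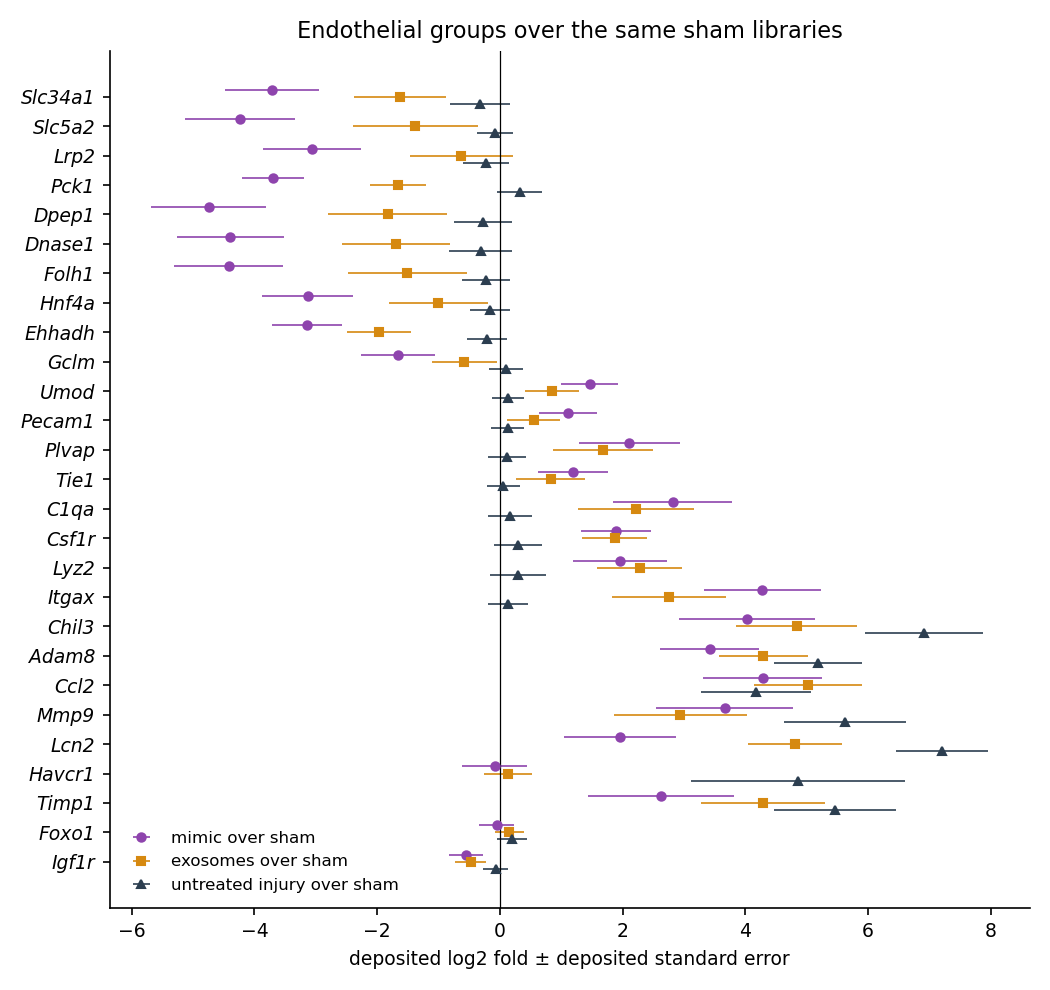
Deposited log2 folds over the same 3 sham libraries, with deposited standard errors as bars, for 27 genes (rows) in mimic-treated (purple circles), exosome-treated (orange squares) and untreated (dark triangles) endothelial groups. For Slc34a1 the mimic, exosome and untreated folds were -3.71, -1.62 and -0.32, and for Lcn2 they were 1.96, 4.81 and 7.20. Shrinkage may differ between the groups, so gaps between symbols are not measured differences.

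Genes of oxidative fuel use fell in part. Of 26 fatty acid oxidation genes 10 fell and 1 rose, with a median deposited log2 fold of -0.54. Of all tested genes 7.63% were lower and 3.93% higher. Ehhadh, an enzyme of peroxisomal oxidation, fell by 3.14, Cd36, a fatty acid carrier, by 2.45, and Ppara, the receptor that induces these genes, by 1.59 in the authors' deposited table. Cpt1a, the gate of mitochondrial import, had a deposited log2 fold of -0.08 (adjusted p = 0.883). Fabp4, a fatty acid binding protein of endothelium and fat cells, was the member that rose, by 1.92. Ehhadh had 13.7 and 13.2 TPM with the mimic, 36.6, 37.7 and 34.7 with scrambled miR and 54.5, 12.1 and 13.7 with exosomes. The mimic libraries were below all scrambled libraries and overlapped exosome libraries 2 and 3 in TPM, while in RPM (85.9 and 80.5) they were below all 6. The list as a whole did not lie like Ehhadh: its TPM summed to 2395 and 2615 with the mimic, 2150.1, 2200.1 and 1787 with scrambled miR and 2817, 1368 and 1855 with exosomes, so the mimic sums were above the scrambled ones. By edgeR its median log2 difference from scrambled miR was 0.27, with 8 of 26 negative and none called. None of 23 nuclear respiratory chain genes (median -0.17) and none of 13 mitochondrially encoded genes (median 0.24) was called. The mitochondrially encoded genes summed to 327023 and 327701 TPM with the mimic. With scrambled miR they summed to 219929, 269141 and 291295 TPM, and with exosomes to 309519, 411445 and 426954. Values of other genes are scaled to totals that hold these reads, and their part in the comparisons between libraries was not tested.

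Antioxidant genes driven by NRF2 had 6 of 20 members lower and none higher (median -0.29), where 7.63% of all tested genes were lower. Me1, malic enzyme, fell by 3.82, Gclm, the modifier subunit of glutathione synthesis, by 1.66, Gsr, glutathione reductase, fell by 1.498, Osgin1 by 1.21, Prdx1, a peroxiredoxin, by 1.11 and Ftl1, ferritin light chain, by 1.07 on the deposited log2 scale. Hmox1, heme oxygenase 1, had a deposited log2 fold of -0.13 over sham with the mimic (adjusted p = 0.839) and of 1.82 in untreated injury (adjusted p = 0.00111). Hmox1 had 6.80 and 7.71 TPM in the mimic libraries and 52.4, 16.0 and 39.6 TPM with scrambled miR. In the direct table of mimic and untreated injury 13 of the 20 NRF2 genes were lower with the mimic, where 6.46% of all tested genes were. Hypoxia and glycolysis genes split over sham, with 3 of 21 higher and 3 lower, beside 3.93% and 7.63% of all tested genes. Pkm rose by 1.15, Hk1 by 1.11 and the oxygen sensor Egln3 by 1.14, while Ndrg1 fell by 2.16, Ldha by 1.12 and Bnip3 by 0.92.

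Macrophage genes were the marker list with the highest median. Of 20 such genes 13 rose and none fell, where 3.93% of all tested genes were higher. The median deposited log2 fold of the 20 was 1.96. The complement C1q chains, which resident macrophages make, rose together: C1qa by 2.82 (SE 0.97), C1qb by 3.06 (SE 0.99) and C1qc by 3.05 (SE 0.80). C1qa (ENSMUSG00000036887, chromosome 4, 136895917 to 136898803, minus strand, GRCm38) had 15.9 and 37.9 TPM with the mimic, 11.6, 36.7 and 20.4 with scrambled miR and 10.9, 16.0 and 18.8 with exosomes. Mimic library 2 was the highest of the 8 and mimic library 1 lay within the others' range. Csf1r, the receptor for the macrophage growth factor, rose by 1.89 in the authors' deposited table, Aif1 by 2.75, the endotoxin co-receptor Cd14 by 2.40 and the lysosomal Cd68 by 2.34. Adgre1, which encodes F4/80, had a deposited log2 fold of 1.19 (adjusted p = 0.113), with 3.07 and 10.7 TPM in the mimic libraries. The list's TPM summed to 293 and 605 in the mimic libraries, 575, 747 and 422 with scrambled miR and 302, 317 and 361 with exosomes, so the groups overlap.

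In the authors' deposited table of untreated injury over sham the same 20 genes had a median of 0.13, with 4 higher and 2 lower. Of all genes tested there 3.3% were higher and 1.11% lower. C1qa stood at 0.17 and Csf1r at 0.30. Shrinkage may differ between these comparisons, as noted for the proximal tubule genes. In that of exosomes over sham, where 616 genes (3.35%) were higher, the median was 2.15, with 13 higher, C1qa at 2.22 and Csf1r at 1.87. Mimic against untreated injury had 6 of 20 higher and 1 lower with the mimic in the authors' deposited table. Of all genes tested there 3.78% were higher and 6.46% lower. C1qa was at 1.10 (adjusted p = 0.113) and Aif1 at 2.22 (adjusted p = 0.00782).

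The 12 widest rises among genes with a base mean of at least 100 were mostly genes of myeloid cells: Lcp2, Ccl2, Itgax, Cyth4, Chil3, Cd83, Slc11a1, Adam8, Cd37, AI662270, Ncf4 and C1qb. Lcp2, an adaptor of leukocyte signalling also called SLP-76, headed them with a deposited log2 fold of 4.91, but its SE was 1.91 and its TPM differed between the mimic libraries, at 1.21 and 17.4. In RPM Lcp2 had 4.08 and 9.71 with the mimic, 7.56, 7.61 and 5.87 with scrambled miR and 5.26, 8.25 and 4.69 with exosomes. On that scale the mimic libraries lay closer together and all 3 groups overlapped. Itgax, the dendritic cell integrin CD11c, was at 0.560 and 5.01 TPM and 4.98 and 9.48 RPM in the mimic libraries, and had a deposited log2 fold of 4.28 (SE 0.96, adjusted p = 3.88e-05). Cyth4, a leukocyte exchange factor for ARF, was at 8.11 and 12.1 TPM with the mimic, 4.80, 3.30 and 5.29 with scrambled miR and 3.18, 5.42 and 5.28 with exosomes. Both mimic libraries were above the other 6 in TPM only. In RPM, with 14.4 and 19.8 for the mimic, 17.4, 17.6 and 16.2 for scrambled miR and 9.34, 18.8 and 17.1 for exosomes, the groups overlapped. The authors' deposited table gives 4.04 (SE 0.59, adjusted p = 3.09e-09) over sham. Slc11a1, a phagosome metal transporter, rose by 3.43, Ncf4, a subunit of the phagocyte oxidase, by 3.23, and Cd83, a marker of mature dendritic cells, by 3.47 on that deposited scale. Chil3, a lectin of alternatively activated macrophages, was at 1.19 and 0.995 RPM with the mimic, 16.2, 30.9 and 23.6 with scrambled miR and 1.80, 2.87 and 0.659 with exosomes. The mimic libraries were below all scrambled libraries and within the exosome range, and their TPM, at 0.409 and 5.11, lay further apart. Chil3 stood at 4.02 over sham with the mimic and 6.91 in untreated injury in the authors' deposited tables. Adam8, a leukocyte metalloproteinase, had 3.42 and 5.19 in the same tables.

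Other blood cell lists had fewer calls, while over all tested genes 3.93% were higher and 7.63% lower. Of 9 neutrophil genes with an adjusted p (12 listed), 4 rose: Mmp9 by 3.67, Mmp8 by 3.49, Il1r2 by 3.07 and S100a8 by 1.94. Their median was 1.15 with the mimic and 3.23 in untreated injury over the same sham libraries. S100a9, the partner of S100a8, had 8.50 and 11.4 TPM with the mimic and a deposited log2 fold of 0.74 (adjusted p = 0.212). Of 17 lymphocyte genes 1 rose, the B cell receptor chain Cd79b, by 1.46, and Cd3e of T cells stood at 0.20 (adjusted p = 0.567) in the authors' deposited table. Of 6 platelet genes with an adjusted p (10 listed) 1 rose, the chemokine Pf4, by 2.08. Pf4 was at 7.88 and 8.97 TPM with the mimic, 70.2, 28.1 and 17.8 with scrambled miR and 4.94, 8.86 and 4.69 with exosomes, so the mimic libraries were below the scrambled ones and overlapped the exosome ones. Of 9 erythroid genes (10 listed) 1 fell, the transcription factor Klf1, by 2.26, while the globin Hbb-bs had a deposited log2 fold of 0.43 (adjusted p = 0.423). Of 13 MHC genes (14 listed) 1 fell, the class II peptide loader H2-DMb1, by 1.41.

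Genes of inflammatory signalling rose in part, and the counts here stand beside 3.93% of all tested genes higher and 7.63% lower. Of 19 NF-kB and cytokine genes with an adjusted p (23 listed), 6 rose and none fell (median 0.58). These were the monocyte chemokines Ccl7 (4.67) and Ccl2 (4.29), Ccl4 (2.66), Ccl3 (2.25), the cytokine Il1b (2.64) and the inducible regulator Nfkbiz (2.03), as log2 folds in the authors' deposited table. Over untreated injury 1 of the 19 was lower with the mimic and none higher, near the 6.46% of all tested genes that were lower there. Ccl2 was at 0.947 and 4.66 TPM with the mimic, 14.0, 7.95 and 5.44 with scrambled miR and 2.92, 6.75 and 1.54 with exosomes. Both mimic libraries were below all scrambled libraries, and the deposited log2 folds of Ccl2 over sham were 4.29 with the mimic and 4.17 in untreated injury. In the CC chemokine family 9 of 17 rose (20 listed) and Ccl28, an epithelial chemokine, fell by 3.34. In the CXC family Cxcl14 rose by 2.85 and Cxcl12, the stromal ligand of CXCR4, fell by 2.80 (9 with an adjusted p of 12 listed). Of the Toll-like receptors 4 of 11 rose, among them Tlr2 by 1.44, and of the C-type lectins 6 of 22 (26 listed), with the myeloid Clec5a at 4.77. Of the Fc gamma receptors Fcgr1 and Fcgr3 rose by 2.47 and 2.38, and Fcgr2b, the inhibitory receptor, fell by 1.73. The macrophage list moves with these families, and its part in them was not tested.

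**Figure D3:**
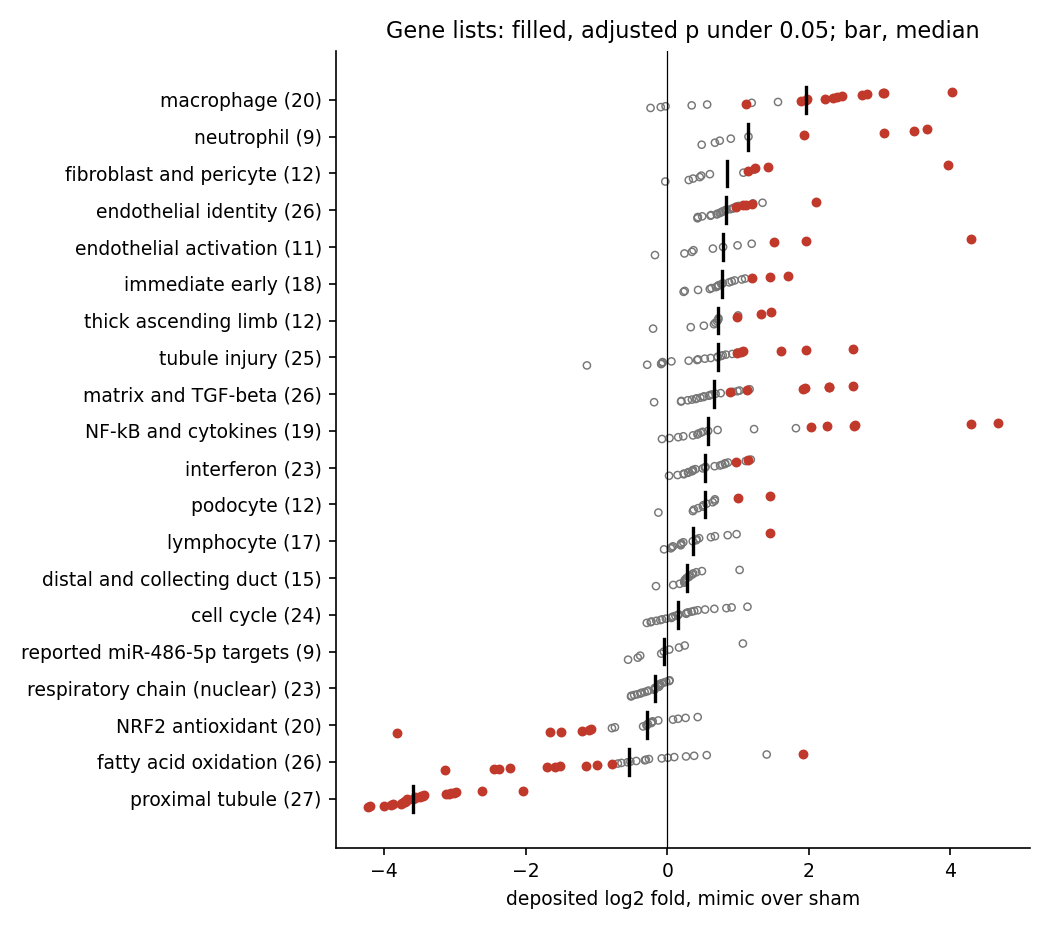
Deposited log2 fold of mimic over sham (horizontal axis) for the members of 20 gene lists (rows, number of members with an adjusted p in brackets), filled where the adjusted p is under 0.05, with a bar at each median. Proximal tubule genes lie at a median of -3.59 and macrophage genes at 1.96, while the reported miR-486-5p targets are all open points around -0.05.

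Of 26 endothelial identity genes 5 rose and none fell, where 3.93% of all tested genes were higher. All 26 had positive deposited log2 folds over sham, with a median of 0.82, as had all 23 interferon and all 18 immediate early genes. Plvap, the diaphragm protein of fenestrated capillaries (ENSMUSG00000034845, chromosome 8, 71497765 to 71511752, minus strand, GRCm38), had 68.9 and 109 TPM with the mimic, 60.3, 102 and 61.1 with scrambled miR and 61.1, 51.1 and 56.9 with exosomes. The mimic libraries lay above all exosome libraries and overlapped the scrambled ones, and the authors' deposited table gives 2.11 (SE 0.82, adjusted p = 0.0114) over sham. Pecam1, the gene of the antigen used in the isolation, had 47.7 and 70.6 TPM with the mimic, 43.3, 69.5 and 40.1 with scrambled miR and 38.9, 34.7 and 41.1 with exosomes. Its groups overlap in the same way, and its deposited log2 fold was 1.11 (SE 0.48, adjusted p = 0.0329). Tie1, a receptor of the angiopoietin system, rose by 1.19, Cldn5, the endothelial tight junction claudin, by 1.07 and Ramp2, the partner of the adrenomedullin receptor, by 0.97. Cdh5, VE-cadherin, had a deposited log2 fold of 1.01 (adjusted p = 0.108), Kdr, the main VEGF receptor, of 0.61 (adjusted p = 0.256), and Emcn, a capillary sialomucin, of 0.75 (adjusted p = 0.177). None of the 26 was called in untreated injury over sham (median 0.11), and 1 was called higher in exosomes over sham (median 0.41). The list summed to 1029.8 and 1287 TPM in the mimic libraries, 790.0, 1407 and 823 with scrambled miR and 681, 717 and 820.3 with exosomes. Between mimic and scrambled libraries the proximal tubule sum was lower and the thick ascending limb sum higher, and their part in these values was not tested.

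Within the endothelial programme, 1 of 12 arterial and Notch genes rose (13 listed, median 0.64), the Notch target Hes1, by 1.28. Over all tested genes 3.93% were higher, which is the share to set beside the small counts that follow. Hes1 had 74.6 and 59.9 TPM with the mimic, 24.05, 46.2 and 39.6 with scrambled miR and 22.6, 53.7 and 42.0 with exosomes. The mimic libraries were above the other 6 in TPM, and in RPM above the scrambled libraries only (103 and 86.5 with the mimic and 47.6, 93.9 and 76.9 with exosomes). Of 17 angiogenic and tip cell genes 2 rose (median 0.74), Hspg2, the basement membrane proteoglycan perlecan, by 1.49 and Vegfc, a lymphatic growth factor, by 1.20. Of 10 flow-responsive genes 1 rose (median 0.76), the mechanosensitive channel Piezo1, by 1.47, and Klf2, the classic laminar flow factor, had 0.78 (adjusted p = 0.177) in the authors' deposited table. Of 11 endothelial activation genes with an adjusted p (15 listed), 3 rose (median 0.79): Ccl2, Lcn2 and the leukocyte adhesion molecule Vcam1 (1.51). The median of the same genes in untreated injury over sham was 2.01, with 9 higher, where 3.3% of all tested genes were. Icam1 had a deposited log2 fold of 0.24 (adjusted p = 0.677) with the mimic and 2.01 (adjusted p = 0.000807) untreated, and was lower with the mimic in the direct table, at -1.43 (adjusted p = 0.0212). Icam1 had 7.51 and 8.41 TPM with the mimic, 25.1, 13.3 and 14.1 with scrambled miR and 6.66, 8.80 and 5.62 with exosomes, the mimic libraries below all scrambled ones. Of 13 coagulation and fibrinolysis genes (14 listed), F13a1, a transglutaminase of monocytes and platelets, rose by 2.06 and Serpinc1, antithrombin, fell by 3.40, while tissue factor F3 had -0.17 (adjusted p = 0.744).

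Tubule injury genes rose in part. Of 25 such genes 6 rose and none fell with the mimic (median 0.71), and 21 rose in untreated injury over the same sham libraries (median 2.49). Of all tested genes 3.93% were higher with the mimic and 3.3% in untreated injury. The 6 were Timp1, a protease inhibitor (2.62), Lcn2, the injury marker NGAL (1.96), the hyaluronan receptor Cd44 (1.61), Anxa2 (1.07), vimentin Vim (1.05) and the keratin Krt7 (0.98), as log2 folds in the authors' deposited table. Lcn2 had 7.41 and 18.8 TPM with the mimic, 305, 405 and 419 with scrambled miR and 19.5, 137 and 12.1 with exosomes. The mimic libraries were far below the scrambled ones and overlapped the exosome libraries. Havcr1, the injury molecule KIM-1, had 0.113 and 1.35 TPM with the mimic, 259.9, 33.5 and 78.7 with scrambled miR and 2.95, 22.4 and 0.631 with exosomes. Its deposited log2 fold over sham was -0.09 (adjusted p = 0.804) with the mimic and 4.86 (adjusted p = 0.00574) untreated. Spp1, osteopontin, had 745 and 1102 TPM with the mimic and 7350.0, 9571 and 10485 with scrambled miR, and deposited log2 folds over sham of 0.99 (adjusted p = 0.124) and, untreated, 3.60. In the direct table of mimic and untreated injury 12 of the 25 were lower with the mimic and none higher, where 6.46% of all tested genes were lower. Lcn2 stood there at -4.51 (SE 0.87) and Havcr1 at -5.57 (SE 2.17).

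None of the genes listed for other parts of the nephron fell, and 3.93% of all tested genes were higher. Of 12 thick ascending limb genes 3 rose and none fell (median 0.71). Umod, uromodulin, the main urinary protein of that segment (ENSMUSG00000030963, chromosome 7, 119462711 to 119479282, minus strand, GRCm38), had 10397 and 11616 TPM with the mimic, 3505, 7737 and 5339 with scrambled miR and 4850.4, 5735 and 8029 with exosomes. Both mimic libraries were above the other 6, and its log2 fold over sham in the authors' deposited table was 1.46 (SE 0.46, adjusted p = 0.00395). The claudins Cldn19 and Cldn16, which form its magnesium pore, rose by 1.33 and 0.99. Slc12a1, the furosemide-sensitive cotransporter, had 561 and 619 TPM with the mimic and 45.3, 261 and 133 with scrambled miR, and a deposited log2 fold over sham of 0.68 (adjusted p = 0.241). Over untreated injury 8 of the 12 were higher with the mimic (median 1.37), where 3.78% of all tested genes were. None of 15 distal tubule and collecting duct genes was called (median 0.27), Slc12a3, the thiazide-sensitive cotransporter, at 1.02 (adjusted p = 0.0804) and the water channel Aqp2 at 0.35 (adjusted p = 0.506). Of 12 podocyte genes 2 rose (median 0.53), Thsd7a by 1.45 and Ptpro by 1.00, with Nphs1, which encodes nephrin of the slit diaphragm, at 0.50 (adjusted p = 0.338).

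**Figure D4:**
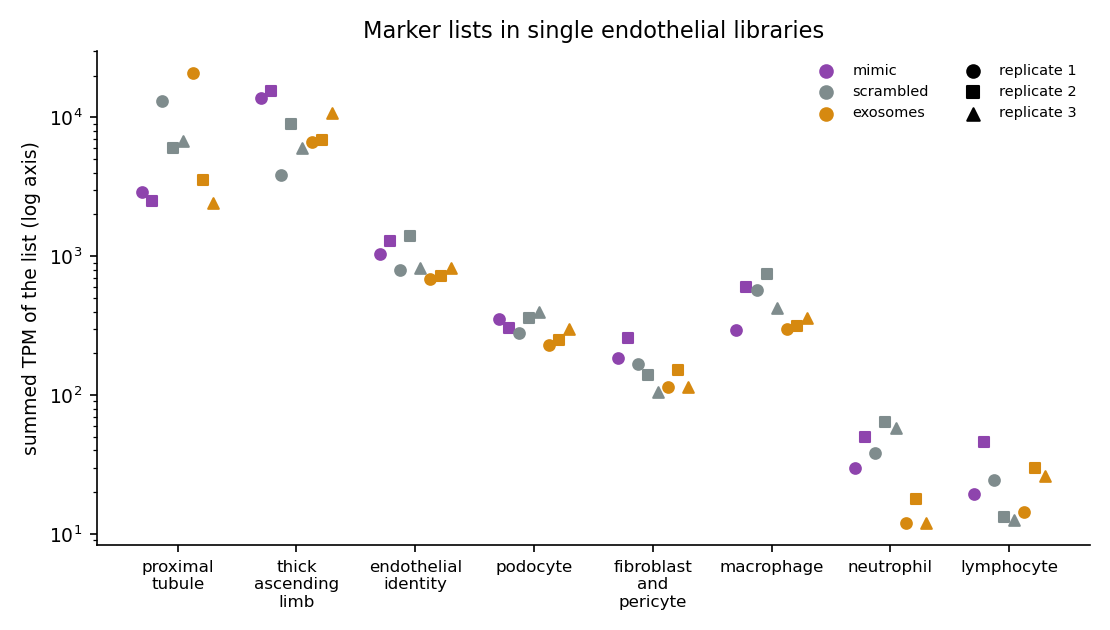
Summed TPM of 8 marker lists (log axis) in each endothelial library with its own file: 2 with the mimic (purple), 3 with scrambled miR (grey) and 3 with exosomes (orange), with the symbol giving the replicate. The mimic libraries sit lowest or near lowest for proximal tubule genes and highest for thick ascending limb genes, and overlap the other groups for macrophage genes.

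The plot of marker sums shows the same libraries without any sham value. Mural and stromal genes were among those that rose over sham, where 3.93% of all tested genes were higher. Of 12 fibroblast and pericyte genes with an adjusted p (14 listed), 4 rose (median 0.84). Acta2, smooth muscle actin, had 12.7 and 11.9 TPM with the mimic, 7.27, 6.63 and 6.24 with scrambled miR and 5.86, 5.93 and 7.06 with exosomes, above both other groups. Its deposited log2 fold over sham was 1.42 (SE 0.40, adjusted p = 0.00122). Tagln rose by 1.24, the pericyte gene Rgs5 by 1.14 and the low-abundance calponin Cnn1 by 3.97, while Pdgfrb had 0.48 (adjusted p = 0.361). Of 26 matrix and TGF-beta genes with an adjusted p (29 listed), 7 rose (median 0.66): Timp1, Tgfbi (2.29), Col3a1 (2.28), the cytokine Tgfb1 itself (1.95), Col1a1 (1.92), Sparc (1.13) and Col18a1 (0.88) in the authors' deposited table. Tgfb1 had 31.1 and 47.0 RPM with the mimic, 40.3, 39.6 and 34.2 with scrambled miR and 21.1, 37.4 and 34.99 with exosomes, and the groups overlapped, while in TPM the mimic libraries (14.2 and 13.5) were above the exosome libraries (8.72, 9.45 and 7.67). Col1a1 was under 0.1 TPM in both mimic libraries (0.0529 and 0.0476), so its fold rests on very few reads.

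The genes reported as targets of miR-486-5p were examined next. None of the 9 with an adjusted p was called over sham in either direction (10 listed, median -0.05). The list summed to 68.1 and 82.6 TPM with the mimic, 108, 115.5 and 116 with scrambled miR and 72.9, 69.7 and 56.9 with exosomes. In TPM and in RPM the mimic sums were below every scrambled sum and overlapped the exosome sums. Foxo1 had 2.49 and 2.68 TPM with the mimic, 3.48, 2.95 and 2.73 with scrambled miR and 3.69, 1.84 and 2.19 with exosomes. Both mimic libraries lay just below the scrambled range and within the exosome range. Its deposited log2 fold over sham was -0.05 (SE 0.28, adjusted p = 0.938). Of the others, Igf1r, the IGF receptor, had -0.55 (adjusted p = 0.121), Olfm4 -0.42 (adjusted p = 0.428), Pim1, a survival kinase, 1.07 (adjusted p = 0.114), Pik3r1 0.25, Arhgap5 0.17, Sirt1 0.03 and Smad2 -0.08 in the authors' deposited table. Dock3 was at 0 and 0.0157 TPM in the mimic libraries and has no adjusted p. Over untreated injury 1 of the 9 was lower with the mimic, where 6.46% of all tested genes were. It was Olfm4, at -1.84 (SE 0.70, adjusted p = 0.00817). Of 23 PI3K, AKT and mTOR genes 1 fell over sham, where 7.63% of all tested genes were lower. It was Mtor, by 1.02 (SE 0.46), and the catalytic subunit Pik3ca had -0.07 (adjusted p = 0.897). Of 14 FoxO-responsive genes (16 listed) 1 fell, near the same share of all tested genes. It was Cat, the peroxisomal catalase, by 1.78 (SE 0.54), and Irs2 had 0.43 (adjusted p = 0.424).

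Stress and growth programmes differed in their calls, and each count below is of few genes. Of all tested genes 3.93% were higher and 7.63% lower. Of 18 immediate early genes 3 rose (median 0.78), Myc by 1.71, Atf3 by 1.45 and Zfp36 by 1.20, and Fos had 0.95 (adjusted p = 0.0982). Of 14 heat shock genes 5 were called, where 11.6% of all tested genes were: Hspa1a, Hspa1b and Hspb1 rose by 1.65, 1.64 and 1.32, and the mitochondrial Hspd1 and constitutive Hspa8 fell by 1.00 and 0.48. Hspa1a and Hspa1b are near-identical copies, so reads between them are split uncertainly. Of 23 interferon genes 2 rose (median 0.53), Ifitm3 by 1.13 and the RNA sensor Ifih1 by 0.97. Of 17 p53 and apoptosis genes 1 rose (18 listed), Phlda3, by 0.87, while Cdkn1a, the cell cycle inhibitor p21, had 0.33 (adjusted p = 0.519) with the mimic and 3.62 (adjusted p = 0.000131) untreated in the authors' deposited tables. None of 24 cell cycle genes (median 0.16), 17 unfolded protein response genes (median 0.09) or 23 ribosomal protein genes (median -0.08) was called by the authors' deposited adjusted p under 0.05.

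The mimic libraries could also be set against injured libraries of the same deposit, without the sham values. By edgeR's quasi-likelihood test over 16316 genes (2, 3 and 3 libraries), none (0%) was called against scrambled miR at an adjusted p under 0.05, with 3176 at an unadjusted p under 0.05, and none (0%) against exosomes, with 661 unadjusted. DESeq2 called 1355 and 5. The edgeR count against scrambled miR was 1321 without exosome replicate 1, 185 without exosome replicate 2 and 366 without exosome replicate 3, libraries that belong to neither group of that contrast. In simulated data this design recovered 18 of 100 genes at a log2 fold of 1 and 86 of 100 at 2 against scrambled miR. The changed genes there were drawn only from those with a mean count over 100, with counts simulated from the fitted dispersions. Those shares therefore do not cover genes of lower count, and they do not give the power behind the counts of calls in the real libraries. Pck1 stood at a log2 difference of -2.66 (SE 0.49, adjusted p = 0.0545) from scrambled miR and -1.92 (SE 0.47, adjusted p = 0.988) from exosomes by edgeR. Slc34a1 stood at -1.22 (SE 0.83, adjusted p = 0.460) and -1.81 (SE 0.85, adjusted p = 0.988). Over the 28 proximal tubule genes the median log2 difference was -1.61 against scrambled miR, with 26 negative, and -1.91 against exosomes, with 28 negative; without exosome replicate 1 the differences against exosomes were -0.32 for Slc34a1 and -1.25 for Pck1. The macrophage median was -0.20 against scrambled miR and -0.05 against exosomes. Among single myeloid genes Chil3 was at -4.38 (SE 0.58, adjusted p = 0.0545) and Adam8 at -3.10 (SE 0.59, adjusted p = 0.0545) against scrambled miR. Lcn2 was at -4.70 (SE 1.16, adjusted p = 0.0845) and Havcr1 at -7.20 (SE 1.91, adjusted p = 0.0980) in the same contrast. Without mimic replicate 2 these were -5.46 and -9.37, and Havcr1 was at -6.48 without mimic replicate 1 and -6.28 without scrambled replicate 1. Umod was at 1.15 (SE 0.41, adjusted p = 0.175), Plvap at 0.46 (SE 0.28, adjusted p = 0.398), Pecam1 at 0.18 (SE 0.23, adjusted p = 0.719) and Foxo1 at -0.04 (SE 0.19, adjusted p = 0.936).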

How the data were processed

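RNA from CD31-selected kidney endothelial cells was sequenced as poly(A) libraries. The submitters' processing notes name GRCm38, DESeq2 and Salmon 0.13.1 without their order or settings. The authors deposited unnormalized estimated counts for each transcript, with TPM values and transcript lengths beside them, under Salmon's column names. The log2 fold changes with their standard errors, the p-values and the base mean (the signal of a gene, as its mean normalized count) stand in the authors' deposited comparison tables under column names of DESeq2. Base means are the same in all 6 endothelial tables, so those libraries were normalized together. Folds are first-named group over second, and the table of untreated injury and mimic was turned to mimic over untreated. As a check of direction, its folds were added to those of untreated injury over sham. The sum correlated with the folds of mimic over sham at r = 0.922. That was across 12987 genes with base mean of at least 100, which are not independent replicates.

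Mimic over sham was read only from the authors' table, called at adjusted p under 0.05. Of 25412 genes, 6548 have no adjusted p. Where a symbol occurs more than once, the entry with the higher base mean was used. For mimic, scrambled miR and exosomes, the 136202 transcripts were summed to 53392 genes, rounded, and fitted with edgeR 4.0.16 in R 4.3.3 (TMM, filterByExpr with minimum count 10 and total 15, quasi-likelihood test, Benjamini-Hochberg adjustment). This test gives no standard error. The SE printed with edgeR values is the absolute log2 difference divided by the square root of the test's F. DESeq2 1.42.0 was an alternative. RPM was computed from a gene's summed estimated counts over those of all genes in the library. The procedure was tested on simulated data of 15856 genes.

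Genes named are the 12 widest rises and falls with base mean of at least 100, up to 5 called members of each of 35 lists with the smallest adjusted p and the first member of each list, and the 10 reported targets. Further members of the lists, 15 families grouped by symbol and the genes given for edgeR were chosen after their values were seen. Members and lists were chosen with earlier results of these data known. Some of these genes, Ccn1 and Ccn2 among them, were not analysed or are not reported here. Positions are from GENCODE M21.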

Additional observations from a re-analysis of the deposited data

How the results depend on the processing

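In the authors' deposited tables an adjusted p under 0.01 left 1163 of 2181 genes over sham (227 higher, 936 lower) and 949 of 2032 over untreated injury, while the other thresholds gave 1782 to 3071 and 1597 to 2888. All 27 tested proximal tubule genes were also called at 0.01 and with a base mean of at least 100, and the macrophage calls went from 13 to 9 and 12. The 5 endothelial identity calls went to 0 at 0.01. With adjustment over every gene with a p, 9 named genes were no longer called, with adjusted p from 0.0506 to 0.0625 (Tie1, Cldn5, Vcam1, Ifitm3, Zfp36, Hspa8, Hspb1, Col1a1 and Cd79b). Against scrambled miR, where edgeR called 0, DESeq2 called 1355, edgeR without the low-count filter 2038, with only both compared groups in the fit 1494, and with a replicate block 661. Against exosomes, where edgeR called 0, DESeq2 called 5 and edgeR without the filter 661, and the replicate block called 0. Leaving out 1 library at a time gave 0 to 1321 calls against scrambled miR and 0 to 0 against exosomes. C1qa ranged from -0.26 to 0.85 against scrambled miR and from -0.12 to 1.02 against exosomes, Pecam1 from -0.0096 to 0.35 and from -0.015 to 0.34, and Foxo1 against exosomes from -0.30 to 0.027. Against scrambled miR Havcr1 ranged from -9.37 to -6.28 and Lcn2 from -5.46 to -4.23. A mimic library left alone was assumed to vary like the other groups. The cause of these changes was not tested. Same-numbered libraries correlated at -0.008 and 0.016 between mimic and scrambled miR and at 0.036 and 0.092 between mimic and exosomes, so the replicate block rests on a shared number only. The depth of the sham libraries is unknown here, which limits what can be said of low genes such as Cnn1 and Col1a1.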

Other observations

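The mimic libraries differed from each other in blood cell genes. The macrophage list summed to 293 TPM in mimic library 1 and 605 in library 2, the lymphocyte list to 19.4 and 45.6, and the neutrophil list to 30.1 and 50.02. Proximal tubule genes summed to similar levels in both, 2899.8 and 2483 TPM. With 2 libraries in the group, the folds of myeloid genes rest on values of this spread.

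A few genes of interest have a fold but no adjusted p in the authors' deposited table. Sele, the E-selectin that catches leukocytes, had a log2 fold over sham of 0.48 with the mimic and 4.22 in untreated injury, and 1.37 and 1.08 TPM in the mimic libraries. Il6, the acute phase cytokine, had 0.21 and 6.03 in the same tables, and 0.739 and 0.686 TPM. G6pc, glucose-6-phosphatase, had -2.79 and -0.25, and 6.39 and 6.98 TPM.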
